A study of Mus musculus with 6 samples.

Results

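Macrophages that carry transcripts of the Cd209 lectins and of Cd163 were described in mouse visceral fat by single-cell RNA sequencing. They were chosen by their own transcripts. A cell counted as Cd209/Cd163-positive when Cd209f, Cd209g, Cd209d and Cd163 together gave at least 4 unique molecular identifiers (UMIs, each counting 1 captured RNA molecule) and Col3a1 plus Col1a2, collagen genes of fibroblasts, gave fewer than 6. Of 2114 cells kept, 481 met the rule, 69 of them in the high-fat diet (HFD) group and 412 in the control group. The fat, from the epididymal depot, was digested with collagenase, and cells were sorted for 2 surface proteins, CD45, found on all leukocytes, and CD11b, found on myeloid cells, before sequencing. The series addressed myeloid cells of visceral fat in long-term obesity and holds 3 HFD samples and 3 control samples, which the labels distinguish by diet alone. Strain, age, sex, time on the diet and the number of animals behind a sample were not given in the sources used here, so p-values measure only how much these samples vary, part of which may be technical.

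Resident macrophages of connective tissue line blood vessels and take up circulating proteins, debris and iron. The mouse Cd209 genes encode C-type lectins that bind sugars on microbes and host proteins, and Cd163 encodes the scavenger receptor for the haemoglobin-haptoglobin complex. Cells with these receptors usually also carry Lyve1, a hyaluronan receptor, Folr2, a folate receptor, and Mrc1, the mannose receptor, whereas lipid-associated macrophages of obese fat are known for Trem2, a lipid-sensing receptor, Gpnmb, Cd9 and lysosomal genes. The position of cells relative to vessels was not measured here, so "resident perivascular" stands only for the transcripts.

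The genes of the rule lie on mouse chromosomes 8 and 6, and their promoter windows are shown because 2 of the lectins share a long run there. This run lies mostly before the start of the gene, so it is no measure of how reads can be told apart. Windows reach from 250 bases before to 50 bases after the start of the gene and come from RefSeq on GRCm38.p6, a later build than the mm9 named in the submitters' processing notes. Capitals mark the longest run shared by Cd209f and Cd209g, and in Cd209d the single match to GAGGAA, a motif bound by the myeloid factor PU.1, which is on the strand opposite to the one printed and so reads TTCCTC.
Cd209f, chr8:4105715-4106014, minus strand: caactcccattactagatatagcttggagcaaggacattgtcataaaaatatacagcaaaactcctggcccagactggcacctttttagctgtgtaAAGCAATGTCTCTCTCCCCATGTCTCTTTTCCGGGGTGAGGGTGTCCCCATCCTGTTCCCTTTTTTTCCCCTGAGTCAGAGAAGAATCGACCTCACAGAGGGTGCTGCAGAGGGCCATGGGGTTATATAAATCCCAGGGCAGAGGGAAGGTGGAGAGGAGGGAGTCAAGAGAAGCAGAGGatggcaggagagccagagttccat
Cd209g, chr8:4134486-4134785, plus strand: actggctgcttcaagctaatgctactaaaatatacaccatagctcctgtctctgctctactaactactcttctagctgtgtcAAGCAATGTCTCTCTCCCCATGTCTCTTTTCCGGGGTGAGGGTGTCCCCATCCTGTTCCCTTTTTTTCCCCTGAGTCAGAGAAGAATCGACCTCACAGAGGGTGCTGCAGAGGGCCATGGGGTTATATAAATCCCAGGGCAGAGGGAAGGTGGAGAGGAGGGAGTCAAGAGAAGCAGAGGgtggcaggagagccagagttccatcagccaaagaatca
Cd209d, chr8:3878450-3878749, minus strand: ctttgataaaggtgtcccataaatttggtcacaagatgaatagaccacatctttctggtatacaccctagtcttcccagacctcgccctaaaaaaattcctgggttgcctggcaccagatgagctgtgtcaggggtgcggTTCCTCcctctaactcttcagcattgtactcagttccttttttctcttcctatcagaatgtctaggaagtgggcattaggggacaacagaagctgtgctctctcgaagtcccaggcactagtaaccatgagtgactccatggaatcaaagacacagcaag
Cd163, chr6:124304401-124304700, plus strand: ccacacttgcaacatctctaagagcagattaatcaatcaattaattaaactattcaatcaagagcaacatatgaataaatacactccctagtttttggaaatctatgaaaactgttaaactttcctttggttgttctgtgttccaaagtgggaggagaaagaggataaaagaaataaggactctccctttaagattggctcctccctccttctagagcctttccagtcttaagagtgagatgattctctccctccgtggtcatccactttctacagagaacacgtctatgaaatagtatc
The capitals of Cd209f and Cd209g are 180 identical bases, whereas Cd209d shared no run longer than 8 bases with Cd209f and 10 bases with Cd209g. GAGGAA, searched on both strands, was found in Cd209d only, and 28.3% of 32851 promoters of the same table hold it. TATAAA was found in Cd209f and Cd209g and in 13.6% of promoters, and TGCTGA in Cd209d only and in 19.5% of promoters. These are matches of letters, not measured binding. In GENCODE transcripts, 36.3% of the 31-base words of Cd209f also occur in Cd209g, and 20.1% of those of Cd209g occur in Cd209f. Reads from these words are uncertain between the pair. In the last 300 bases of transcripts, the shared part was 42% for Cd209f and 0% for Cd209g. Neither gene shared a 31-base word with Cd209d or Cd163.

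Barcodes and depth have to be given before the levels. The 6 samples list 5511 barcode entries but 2195 distinct barcodes, of which 1082 occur in several samples, and each was counted only where it had most UMIs. Of the 481 positive cells, 273 (56.8%) have a barcode listed in several samples, against 51.1% of all kept cells. All 41 such positive cells of the HFD samples are also listed in a control sample, and 104 of 232 such positive cells of the control samples are also listed in an HFD sample. Positive cells had a median of 12095.5, 15517 and 10446.5 UMIs in HFD samples 1, 2 and 3 and of 9554.5, 5751 and 6477 in control samples 1, 2 and 3, so a fixed count of 4 UMIs was a lower bar in HFD cells. Other cells had medians of 10037, 9556.5 and 9107.5 UMIs in HFD samples 1 to 3 and of 7279.5, 6376 and 6576 in control samples 1 to 3. Positive cells were thus deeper than other cells in each HFD sample and control sample 1, and shallower in control samples 2 and 3. Pooled over all samples, the median was 8798 UMIs in positive cells and 8545 in other cells. No doublet caller was run.

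Positive cells were a small minority of the sort in HFD and a large part of it in control. They made up 26 of 453 cells (5.74%), 21 of 295 (7.12%) and 22 of 380 (5.79%) in HFD samples 1 to 3. In control samples 1 to 3 they made up 210 of 388 cells (54.1%), 77 of 260 (29.6%) and 125 of 338 (37.0%). The exact (Clopper-Pearson) 95% intervals, which cover counting error only, spanned 3.78% to 8.30%, 4.46% to 10.7% and 3.66% to 8.63% in HFD, and over 49.0% to 59.2%, 24.1% to 35.6% and 31.8% to 42.4% in control. The mean share was 6.22% ± 0.78 in HFD and 40.2% ± 12.6 in control (SD, n = 3 samples each), and the diets did not overlap. Since the genes of the rule were chosen with their difference between diets known, the shares are a description and carry no test.

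**Figure D1:**
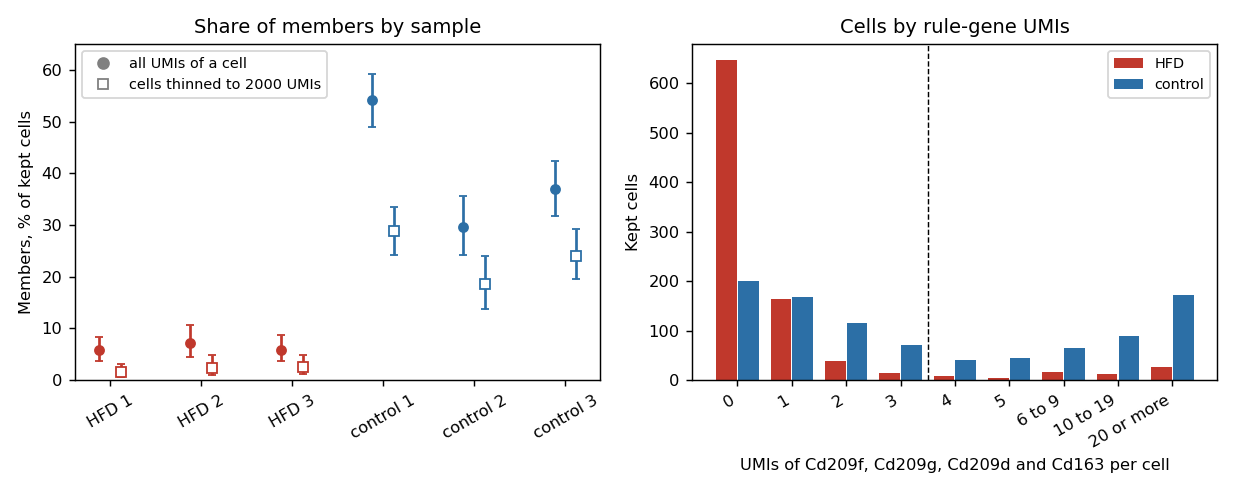
Left, share of kept cells that were members, the Cd209/Cd163-positive cells (y axis, percent), in each HFD and each control sample; filled points use all UMIs of a cell, open squares cells thinned to 2000 UMIs, and vertical bars are exact 95% intervals for counting error. Right, number of kept HFD and control cells (y axis) by UMIs of the 4 rule genes (x axis), with the dashed line at the threshold; the HFD samples lie at 5.74% to 7.12% and the control samples at 29.6% to 54.1%.

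The gap in share was also present under other ways of counting. With every cell thinned to 2000 UMIs before the rule was applied, the share was 2.18% ± 0.57 in HFD and 23.8% ± 5.1 in control. As a share of cells with at least 10 UMIs of the complement genes C1qa, C1qb and C1qc and fewer than 6 collagen UMIs, it was 8.64% ± 1.22 in HFD and 53.2% ± 10.3 in control. With only barcodes listed in 1 sample, it was 4.25% ± 1.98 in HFD and 38.5% ± 8.12 in control. It narrowed most when every deposited barcode was counted in each sample listing it, to 8.25% ± 0.88 in HFD and 20.5% ± 6.8 in control.

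The lectins carried most of the rule, and the 2 diets differed in how strongly cells passed it. A Cd209 lectin together with Cd163 was detected in 34 of 69 positive cells (49.3%) in HFD and in 302 of 412 (73.3%) in control. Only lectins were detected in 29 HFD cells (42.0%) and 108 control cells (26.2%), and only Cd163 in 6 HFD cells (8.70%) and 2 control cells (0.485%). The lectins alone reached 4 UMIs in 73.9% of positive HFD cells and 88.8% of positive control cells, and Cd163 alone in 30.4% of positive HFD cells and 28.2% of positive control cells.

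Cd209f was at 918, 1139 and 647 CPM (UMIs of the gene per 1000000 UMIs summed over a sample's positive cells) in HFD samples 1 to 3 and at 1352, 1503 and 1284 CPM in control samples 1 to 3. Cd209d was at 317, 313 and 278 CPM in HFD and 466, 495 and 645 CPM in control. Cd163 was at 250, 177 and 102 CPM in HFD and 256, 279 and 350 CPM in control. Cd209g was at 312, 286 and 355 CPM in HFD and 505, 583 and 530 CPM in control. All 4 were thus lower in every HFD sample than in any control sample, a description, since the rule used these genes. The log2 difference of HFD minus control (edgeR) was -0.73 for Cd209f, -0.93 for Cd209d, -0.88 for Cd209g and -0.84 for Cd163. With the rule applied to thinned cells it was -0.13, -0.14, -0.51 and -1.23 in the same order. The lectin differences were thus smaller with the thinned rule, and that of Cd163 was larger. The part of depth in these differences was not tested.

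Cells at the threshold were less marked than those far above it. In HFD, 15 cells had 3 UMIs of the rule genes, 9 had 4 and 27 had 20 or more; in control, 71 had 3, 41 had 4 and 172 had 20 or more. Lyve1, which the rule did not use, was at 16.6 CPM in HFD cells with 2 or 3 rule UMIs, 49.2 with 4 or 5, 96.3 with 6 to 19 and 215 with 20 or more. In control the same classes had 32.6, 30.6, 107 and 324 CPM of Lyve1. Folr2 was at 695, 1013, 872 and 1560 CPM in HFD and 270, 320, 640 and 1773 CPM in control over these classes. Around the threshold in control, Lyve1 and Folr2 were thus close to the level just outside the rule, and the marked cells were those with many rule UMIs.

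Compared with all other kept cells, the positive cells were high in lectins, chemokine, scavenger and secreted genes of resident macrophages. The contrast was drawn with the rule's own genes, so the following log2 ratios (with 5 CPM added to each level) are means ± SD over 6 samples and carry no test. Cd209b, a lectin that marks marginal zone macrophages in mouse spleen, was at 168, 41.3 and 56.2 CPM in positive HFD cells and 117, 280 and 210 CPM in positive control cells, against a mean of 4.72 CPM in other cells (log2 ratio 3.79 ± 0.79). Ccl8, a monocyte-attracting chemokine, averaged 3704 CPM in positive cells and 441 CPM in other cells (3.20 ± 0.80). Lyve1 averaged 166 CPM in positive cells and 18.2 CPM in other cells (2.93 ± 0.54). Each of these genes was higher in positive cells in 6 of 6 samples.

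The genes with the largest ratios also covered secreted and metabolic functions. Ednrb, the endothelin receptor B, had a log2 ratio of 2.83. Fcna, a ficolin of the lectin complement pathway, averaged 502 CPM in positive cells and 83.0 CPM in other cells (log2 ratio 2.70 ± 0.74). F13a1, the coagulation factor XIII A chain, averaged 743 CPM in positive cells and 123 CPM in other cells (2.60 ± 0.47). The ratio was 2.51 ± 0.43 for Fxyd2, a regulator of the sodium pump, and 2.49 ± 0.47 for Cbr2, a carbonyl reductase. Tslp, a cytokine of type 2 immunity (2.30), Pla2g2d, a secreted phospholipase (2.29), Ltc4s, leukotriene C4 synthase (2.28 ± 0.63), Vsig4, a complement receptor (2.18), and Bmp2 (2.00) were also at least 4-fold higher. Tfrc, the transferrin receptor (1.92), Gas6, a bridging ligand for uptake of dying cells (1.84), the complement gene C4b (1.85), the eotaxin gene Ccl24 (1.80), Folr2 (1.71) and Mrc1 (1.65) were higher by smaller ratios. Outside the rule genes, 13 genes were at least 4-fold higher.

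**Figure D2:**
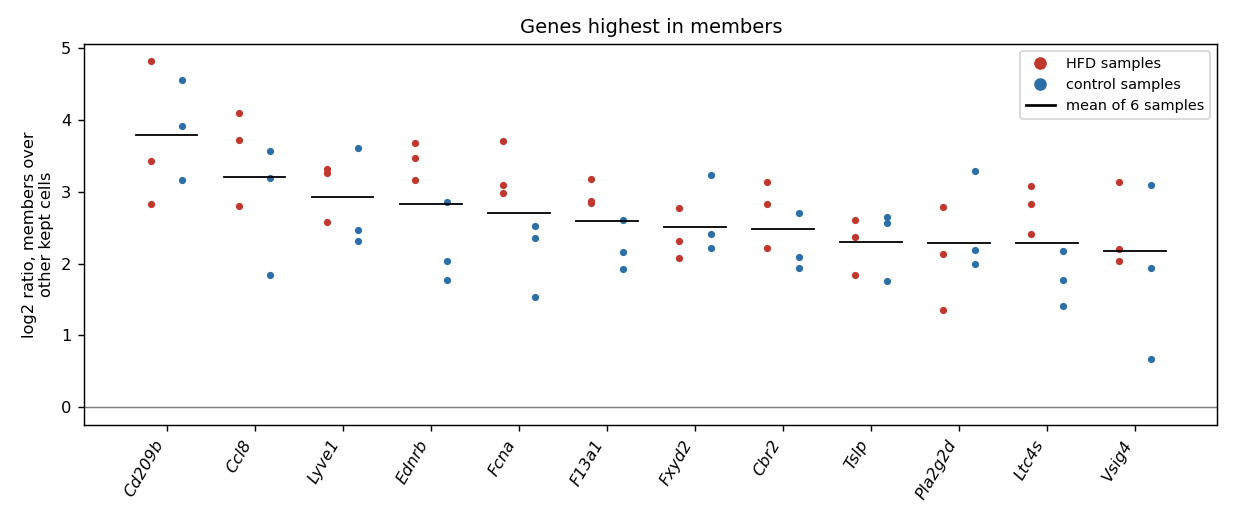
Log2 ratio of CPM in members, the Cd209/Cd163-positive cells, over other kept cells (y axis, 5 CPM added) for the 12 genes with the highest mean ratio (x axis); points are samples, HFD left of control, and bars the mean of 6 samples. All points lie above 0, from Cd209b with a mean of 3.79 to Vsig4 with 2.18.

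As groups, resident genes were raised and MHC class II genes lowered in positive cells. Of 24 perivascular resident genes with a level, 22 were higher in all 6 samples (median log2 ratio 1.73), where 12.1% of all 5207 genes were. Of 15 complement genes 10 were higher, of 7 Fc receptor genes 5 and of 12 mitochondrially encoded genes 9. Of 10 genes of MHC class II, the machinery that presents antigen to CD4 T cells, 9 were lower in all 6 samples (median -0.38), where 10.9% of all genes were. Cd74, the class II invariant chain, had a ratio of -0.38 ± 0.15 and H2-Ab1 of -0.39 ± 0.16. The lipid-associated list had 6 of 20 genes lower and 1 higher. The genes furthest below other cells were fibroblast genes, such as Dcn (-3.60) and Col3a1 (-3.47), and the rule removes cells with collagen UMIs.

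The macrophage part of the label held in the data, within the limits of a sort for CD45 and CD11b. Csf1r, the receptor for the macrophage growth factor, had a log2 ratio of 0.89 and C1qa of 1.03, at 3893 CPM in positive cells and 1989 CPM in other cells. Emr1, which encodes F4/80, was higher in 5 of 6 samples (0.37), and Itgam, which encodes CD11b, in 6 of 6 (0.33). Ptprc, which encodes CD45, did not differ in direction over samples (0.02, higher in 3 of 6). Of 481 positive cells, 461 had at least 10 UMIs of the C1q genes. Timd4, a receptor of long-lived resident macrophages, was low, with a UMI in 14.5% of positive HFD cells and 15.5% of positive control cells, beside 1.1% of C1q-high HFD cells and 6.3% of C1q-high control cells.

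Among C1q-high macrophages, cells outside the rule with at least 10 C1q UMIs and fewer than 4 of Gpnmb plus Mmp12, the resident genes were also lower than in positive cells. The log2 ratio of positive over C1q-high cells was 3.89 for Cd209b, 2.29 for Ccl8, 2.21 for Lyve1, 2.15 for Ednrb, 2.12 for Fcna and 1.69 for Folr2. Il1b, which encodes interleukin-1 beta, averaged 692 CPM in positive cells and 1597 CPM in C1q-high cells (-1.22). Arg1 (-1.40), Cxcl10 (-1.35) and Ccr7 (-1.24) were lower as well. A Lyve1 UMI was found in 62.3% of positive HFD cells and 53.6% of positive control cells, against 9.0% of C1q-high HFD cells and 14.6% of C1q-high control cells. With cells thinned to 2000 UMIs, the share was 17.4% of positive HFD cells, 31.1% of positive control cells, 3.6% of C1q-high HFD cells and 6.4% of C1q-high control cells.

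Free RNA and markers of other cell types were read beside these levels. In cells with at least 4 UMIs of lymphocyte genes, which should lack Lyve1, a Lyve1 UMI was found in 1 of 15 HFD cells and 1 of 26 control cells, at median depths of 4180 UMIs in HFD and 3725.5 UMIs in control. Both these cells and the cells with at least 6 collagen UMIs read below were limited to fewer than 4 rule UMIs and fewer than 10 C1q UMIs. Their levels of rule and C1q genes were thus bounded in advance. Control cells with lymphocyte genes held 44.5 CPM of Cd209f, 8.89 of Cd209g, 35.6 of Cd209d and 17.8 of Cd163, and such HFD cells 0 CPM of each. In cells with collagen UMIs, Cd209f was at 76.8 CPM in control and 2.65 in HFD. Cd209g, Cd209d and Cd163 were at 0 CPM there in control and at 0.884, 4.42 and 4.42 CPM in HFD. The part of this RNA in the share of positive cells was not tested. Lists summed over positive cells ranged over 47862 to 55910 CPM in HFD and 38166 to 39460 CPM in control for 12 macrophage markers, over 825 to 914 CPM in HFD and 1434 to 1558 CPM in control for 9 type 2 dendritic cell markers, and over 253 to 339 CPM in HFD and 68.0 to 164 CPM in control for 10 fibroblast markers. Serous cavity macrophage markers, 10 in number, ranged over 258 to 1715 CPM in HFD and 466 to 7059 CPM in control. Sums over positive cells were 211 to 1239 CPM in HFD and 156 to 1582 CPM in control for 8 B cell markers, and 229 to 12079 CPM in HFD and 242 to 4629 CPM in control for 7 plasma cell markers. For 9 endothelial markers, of which 4 were detected in HFD and 8 in control, they were 307 to 921 CPM in HFD and 151 to 435 CPM in control. On these 3 lists Pax5 of B cells and Tie1 of endothelium were at 0. The 8 mural markers summed to at most 5.90 CPM in HFD and 5.12 CPM in control, with Notch3 and Acta2 at 0, and the 8 adipocyte markers to at most 10.5 CPM in HFD and 12.3 CPM in control, with Acvr1c and Plin1 at 0. The part of these other lists in the diet differences was not tested.

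HFD was compared with control within the positive cells by summing UMIs per sample and testing with edgeR's quasi-likelihood test, adjusted over all genes by Benjamini-Hochberg, with a threshold of 0.05. Of 4945 genes tested, 144 were higher (2.91%) and 225 lower (4.55%) in HFD, 7.46% in all, and the samples of the 2 diets did not overlap for 28% of genes. Of the lists, 12 of 20 lipid-associated and 9 of 30 lysosomal genes rose, while 6 of 14 genes of alternative activation, 7 of 9 of MHC class II and 10 of 25 of the immediate early list fell. Of 22 perivascular resident genes 1 rose and 1 fell. Counts of calls fell by more than 1.5 times without HFD sample 1 (72 higher and 88 lower), HFD sample 2 (68 and 94), HFD sample 3 (86 and 121) or control sample 2 (66 and 122), and with at least 20 rule UMIs per cell, a setting added after the data were seen, to 17 higher and 33 lower.

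**Figure D3:**
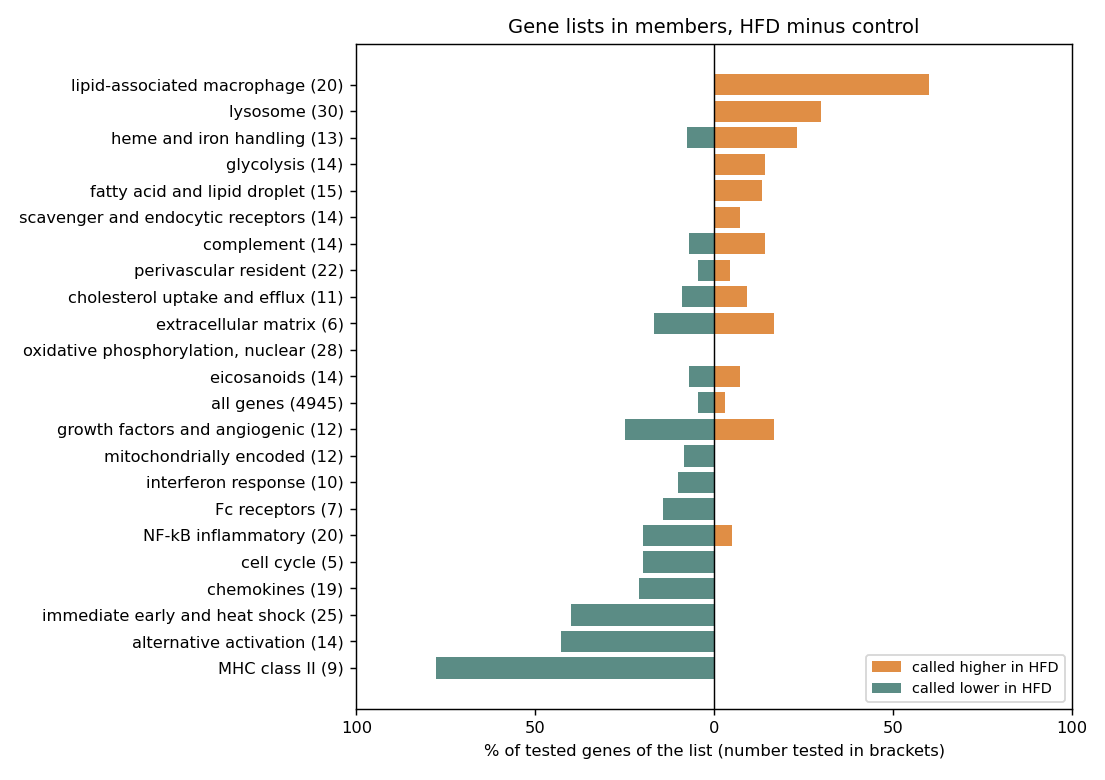
Percent of the tested genes of each list (x axis) called higher, right of 0, or lower, left of 0, in HFD than in control within members, the Cd209/Cd163-positive cells; rows are lists with the number tested in brackets. The lipid-associated list had 12 of 20 genes higher and the MHC class II list 7 of 9 lower, beside 2.91% higher and 4.55% lower over all 4945 genes.

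Lipid-associated genes rose in HFD for most of the list. Of 20 on the list, 12 rose and none fell, with a median log2 difference of 1.14 where that of all genes was -0.02. Ctsd, a lysosomal aspartyl protease, was at 2518, 2458 and 2203 CPM in HFD samples and 813, 744 and 1185 CPM in control samples (log2 difference 1.27 ± 0.17 SE, adjusted p = 0.0012, edgeR). The HFD samples of Ctsd lay close together, all above control. Trem2, singled out after its values were seen, was at 930, 997 and 727 CPM in HFD and 73.1, 161 and 348 CPM in control (2.10 ± 0.40, adjusted p = 0.0083), and Lgals3, singled out likewise, at 3915, 4910 and 3662 CPM in HFD and 931, 948 and 2390 CPM in control (1.44 ± 0.30, adjusted p = 0.013). Neither gene overlapped between diets, and control sample 3 was the highest control sample of both. The call of Trem2 was lost without control sample 2 (adjusted p = 0.054), and that of Lgals3 without HFD sample 2 or control sample 2 (adjusted p up to 0.062) and with the thinned rule (0.088).

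Further genes of that list rose by smaller amounts or with more spread. Cd9, a tetraspanin, was at 340, 336 and 302 CPM in HFD and 145, 66.3 and 128 CPM in control (1.36 ± 0.24, adjusted p = 0.0057; 0.055 with the thinned rule). Spp1, which encodes osteopontin, was at 186, 85.6 and 45.7 CPM in HFD and 7.60, 18.7 and 26.6 CPM in control (2.68 ± 0.49, adjusted p = 0.0073), a call lost without HFD sample 1 (adjusted p = 0.053) and with at least 8 (1.53, adjusted p = 0.086) or 20 rule UMIs (2.00, adjusted p = 0.22). Lpl, which encodes lipoprotein lipase, was at 1518, 1481 and 1848 CPM in HFD and 273, 527 and 953 CPM in control (1.37 ± 0.32, adjusted p = 0.022), lost without HFD sample 1, 2 or 3 or control sample 2 (up to 0.11), with at least 8 (0.072) or 20 rule UMIs (0.094) and with the thinned rule (0.55, adjusted p = 0.59). Gpnmb, which defines lipid-associated cells, was at 652, 490 and 330 CPM in HFD and 2.53, 23.8 and 407 CPM in control, with overlap and adjusted p = 0.35.

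Signs of lipid-associated cells or of their free RNA moved with these genes. At least 4 UMIs of Gpnmb plus Mmp12 were found in 57.7%, 52.4% and 40.9% of positive cells in HFD samples 1 to 3 and in 0.476%, 3.90% and 14.4% in control samples 1 to 3. Among other kept cells the shares were 57.1%, 54.0% and 44.7% in HFD and 4.49%, 6.56% and 20.7% in control. The 7 lipid-associated markers summed to 2137 to 3011 CPM in positive HFD cells and 433 to 1697 CPM in positive control cells. In HFD cells with collagen UMIs, Gpnmb stood at 351 CPM, 69.2% of the level in positive HFD cells. In the 10 such control cells Gpnmb stood at 215 CPM, 203% of the level in positive control cells. The 26 control cells with lymphocyte genes had 26.7 CPM of Gpnmb. Relative to positive HFD cells, Ctsd stood at 30.9%, Spp1 at 18.8% and Trem2 at 10.4% in HFD cells with collagen UMIs. Cd9 stood at 219%, Cd63 at 139% and Lpl at 79.3%. Whether the cells with collagen UMIs transcribe Gpnmb, Cd9, Cd63 and Lpl themselves was not tested, so the values of these genes are no measure of free RNA. In the 15 HFD cells with lymphocyte genes Gpnmb stood at 174 CPM, Lpl at 203 CPM, Cd9 at 131 CPM and Cd63 at 189 CPM. Lyve1 stood at 14.5 CPM and Cd209f at 0 CPM in these 15 cells. In the HFD cells with collagen UMIs, Lyve1 reached 1.96% and Cd209f 0.290% of the level in positive HFD cells. Both sets of cells were limited to fewer than 4 rule UMIs, so their Cd209f level is no measure of free RNA. The part of these values in the lipid-associated result was not tested. Without HFD sample 2 or control sample 2, 8 of 20 genes of the list were higher, where 1.15% and 1.48% of all genes were. With at least 20 rule UMIs per cell 8 of 18 were higher, beside 0.619% of all genes. The thinned rule gave 5 of 18, beside 0.345% of all genes. Among positive cells without any Gpnmb or Mmp12 UMI, only HFD sample 3 with 5 cells remained of the HFD group. The median log2 difference of the list was then 0.76 and that of all genes -0.33.

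Lysosomal genes rose in part. Of 30 tested, 9 rose and none fell (median 0.42), some of which the lipid-associated list also holds. The 9 were 6 without HFD sample 2 or 3, 5 without control sample 2, 4 of 29 with at least 20 rule UMIs and 3 of 26 with the thinned rule. Over all genes, 1.15% rose without HFD sample 2, 1.45% without HFD sample 3 and 1.48% without control sample 2. With at least 20 rule UMIs 0.619% of all genes rose, and with the thinned rule 0.345%. Cd68, a lysosomal membrane protein of macrophages, was at 1211, 1481 and 1072 CPM in HFD and 520, 500 and 547 CPM in control (1.15 ± 0.15, adjusted p = 0.0012, edgeR). The diets were apart and the control samples close together.

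Of 13 genes of heme and iron handling, 3 rose and 1 fell, beside 2.91% higher and 4.55% lower over all genes. Ftl1, the ferritin light chain, was at 25218, 25580 and 25260 CPM in HFD and 12747, 13232 and 16057 CPM in control (0.74 ± 0.11, adjusted p = 0.0024, edgeR). Fth1, the ferritin heavy chain, was at 11179, 10338 and 11017 CPM in HFD and 6419, 5470 and 6547 CPM in control (0.70 ± 0.12, adjusted p = 0.0047). The ferritin genes did not overlap between diets, but with at least 20 rule UMIs none of 12 iron genes was called, where 1.82% of all genes were. Hebp1, a heme-binding protein, rose by 1.14 ± 0.27 (adjusted p = 0.023), a call lost without HFD sample 1 or 3 or control sample 1 (up to 0.10). Cp, which encodes ceruloplasmin, fell by 1.05 (adjusted p = 0.041), lost without any sample other than control sample 3 (up to 0.16).

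Genes of alternative activation, the programme that interleukin-4 induces in macrophages, fell in part in HFD. Of 14 tested, 6 fell and none rose (median -1.16). Retnla, which encodes the secreted protein RELM alpha, was at 1461, 2172 and 2246 CPM in HFD and 12462, 12272 and 15130 CPM in control (log2 difference -2.88 ± 0.18, adjusted p = 4.85e-06, edgeR). Mgl2, a galactose-binding lectin, was at 108, 97.4 and 63.3 CPM in HFD and 464, 413 and 484 CPM in control (-2.44 ± 0.19, adjusted p = 3.66e-05). Both were called in 17 of 17 other settings, including cells with at least 20 rule UMIs (Retnla -2.92, Mgl2 -1.72). Of the 14 genes, 3 of 11 tested fell with at least 20 rule UMIs, and 3 of 11 with the thinned rule. Over all genes, 1.20% fell with at least 20 rule UMIs and 1.30% with the thinned rule. A Retnla UMI was found in 88.4% of positive HFD cells and 99.8% of positive control cells, and after thinning in 53.6% of positive HFD cells and 98.8% of positive control cells.

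Retnla was also found in cells that should lack it. The 15 HFD cells with lymphocyte genes had 87.1 CPM and the 26 such control cells 4590 CPM. The 169 HFD cells with collagen UMIs had 102 CPM, 5.30% of the level of positive HFD cells, and the 10 such control cells 1244 CPM, 9.497% of the level of positive control cells. The part of free RNA in the fall was not tested. Ear2, an eosinophil-associated ribonuclease, was at 103, 35.4 and 35.1 CPM in HFD and 372, 362 and 303 CPM in control (-2.65 ± 0.30, adjusted p = 0.00054, edgeR), and was not called with at least 20 rule UMIs (-1.19) or the thinned rule (-1.48). Ccl17, a chemokine for type 2 T cells, was at 2.58, 8.85 and 0 CPM in HFD and 71.0, 180 and 116 CPM in control (-4.95 ± 0.60, adjusted p = 0.0007). Ccl17 is also a marker of migratory dendritic cells, whose 9 markers summed to 141 to 319 CPM in positive HFD cells and 285 to 867 CPM in positive control cells.

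**Figure D4:**
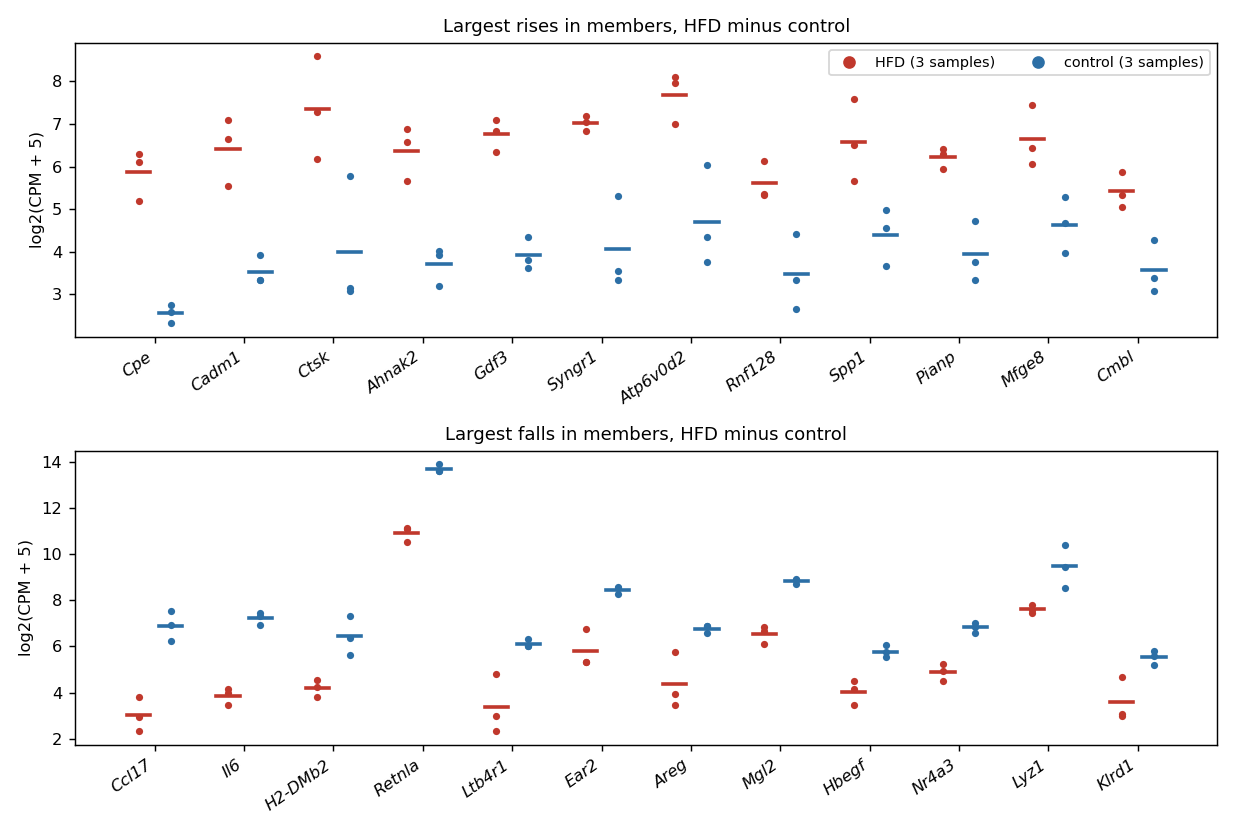
Level of the 12 largest rises (top) and 12 largest falls (bottom) in members, the Cd209/Cd163-positive cells, as log2 of CPM plus 5 (y axis), by gene (x axis); points are samples, HFD left of control, and bars the means of 3 samples. No gene shown overlaps between diets, which the rule for naming them required, and Retnla and Mgl2 have tightly grouped control samples.

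MHC class II genes fell together. Of 9 tested, 7 fell and none rose (median -1.17). H2-Ab1, a class II beta chain, was at 4057, 3862 and 4474 CPM in HFD and 11224, 9986 and 8325 CPM in control (-1.37 ± 0.14, adjusted p = 0.00024, edgeR). Cd74 was at 11251, 12778 and 13596 CPM in HFD and 28779, 25153 and 21361 CPM in control (-1.12 ± 0.14, adjusted p = 0.0008). H2-Aa, the alpha chain, was at 3910, 4302 and 5222 CPM in HFD and 10274, 9467 and 8137 CPM in control (-1.17 ± 0.15, adjusted p = 0.00087). Each had its diets well apart. H2-Eb1 (-1.37), H2-DMa (-1.22) and H2-DMb1 (-0.77), a pair of genes for peptide loading, fell too, the last of them lost without HFD sample 1 or 2 (adjusted p up to 0.067). Ctss, which encodes cathepsin S, an enzyme that trims the invariant chain, was at 2196, 2499 and 2369 CPM in HFD and 1571, 1421 and 1863 CPM in control (adjusted p = 0.089).

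Dendritic cell markers moved in the same direction as class II. The 9 markers of type 2 dendritic cells summed to 825 to 914 CPM in positive HFD cells and 1434 to 1558 CPM in positive control cells, and 4 of 5 tested fell, including Cd209a (-1.31, adjusted p = 0.0018, edgeR) and H2-DMb2 (-2.92, at adjusted p = 0.05005 without HFD sample 2). The call of Cd209a was lost with at least 8 (-0.63, adjusted p = 0.079) or 20 rule UMIs (-0.18, adjusted p = 0.82), with barcodes of 1 sample only (-0.57, adjusted p = 0.42) and with the thinned rule, where the difference was 0.0015. Class II transcripts with at least 20 rule UMIs were lower for 4 of 7 genes, beside 1.20% of all genes. In that setting H2-Ab1 had a log2 difference of -1.13 and Cd74 of -0.94, while H2-DMa (adjusted p = 0.12) and H2-DMb1 (0.20) were not called. The part of dendritic cell transcripts in the result was not tested, and H2 genes are near-identical in places, so the division of reads between them is uncertain.

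Cytokine, chemokine and immediate early genes fell in part. Il6, which encodes interleukin-6, was at 12.9, 5.90 and 10.5 CPM in HFD and 167, 116 and 156 CPM in control (-4.01 ± 0.32, adjusted p = 3.66e-05, edgeR), and with at least 20 rule UMIs it was at -2.24 and not called (adjusted p = 0.091). Il1b was at 392, 490 and 460 CPM in HFD and 1239, 768 and 800 CPM in control (-1.19 ± 0.21, adjusted p = 0.0055), and at -0.13 in cells with at least 20 rule UMIs (adjusted p = 0.88). Of 20 genes of the NF-kB inflammatory list, 4 fell and 1, Tnfaip2, rose (median -0.51). Without HFD sample 2 or control sample 2 there were 2 falls, and with at least 20 rule UMIs 1 fall and no rise among 16 genes. Over all genes, 1.59% fell without HFD sample 2, 2.74% without control sample 2 and 1.20% with at least 20 rule UMIs. Tnf was at 183, 230 and 327 CPM in HFD and 268, 294 and 419 CPM in control, which overlapped (adjusted p = 0.19). In all, 16 of the 20 had a negative difference.

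Of 19 chemokine genes, 4 fell and none rose (median -0.46). Ccl2, the main monocyte chemoattractant, was at 1150, 1688 and 1342 CPM in HFD and 3819, 2480 and 3731 CPM in control (-1.38 ± 0.20, adjusted p = 0.0019, edgeR), Ccl7 at 1338, 1393 and 1690 CPM in HFD and 3370, 2585 and 3602 CPM in control (-1.23 ± 0.16, adjusted p = 0.0011), and Ccl24 at 119, 230 and 193 CPM in HFD and 521, 527 and 707 CPM in control (-1.82 ± 0.22, adjusted p = 0.0008). With at least 20 rule UMIs Ccl2 (-2.01) and Ccl24 (-1.81) were also called, whereas Ccl7 was not (adjusted p = 0.069), nor was it with the thinned rule (0.21). Ccl8, the chemokine that marks the positive cells most strongly, was at 3918, 3231 and 7640 CPM in HFD and 2087, 3032 and 2319 CPM in control, a difference of 0.88 ± 0.26 that missed the threshold (adjusted p = 0.063).

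Of 25 immediate early and heat shock genes, 10 fell and none rose (median -0.38). Nr4a3, an orphan nuclear receptor, was at 25.8, 32.5 and 17.6 CPM in HFD and 125, 90.1 and 111 CPM in control (-2.22 ± 0.27, adjusted p = 0.0008, edgeR). Dnajb1, a heat shock co-chaperone, was at 82.5, 70.8 and 80.8 CPM in HFD and 239, 178 and 173 CPM in control (-1.47 ± 0.20, adjusted p = 0.0016). Both genes were lower in every HFD sample. Without HFD sample 2 the list had 5 falls, without control sample 2 or 3 it had 6, with at least 20 rule UMIs 5 of 23 and with the thinned rule 5 of 24, where Nr4a3 was not called (adjusted p = 0.21). Over all genes, 1.59% fell without HFD sample 2, 2.74% without control sample 2 and 4.99% without control sample 3. With at least 20 rule UMIs 1.20% of all genes fell, and with the thinned rule 1.30%. Dnajb9, a chaperone of the endoplasmic reticulum, was at 64.4, 64.9 and 63.3 CPM in HFD and 165, 163 and 171 CPM in control (-1.49 ± 0.17, adjusted p = 0.00061).

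The resident genes that describe the positive cells were also compared between diets. Pla2g2d, high in positive cells but not on the perivascular resident list, fell (-1.56, adjusted p = 0.0047, edgeR). Pla2g2d was at -1.82 with at least 20 rule UMIs and at -1.93 with the thinned rule. Its call was lost with barcodes of 1 sample only (-1.27, adjusted p = 0.070). Ccl24, likewise outside the list, fell as given above. Of 22 perivascular resident genes tested, 1 rose and 1 fell, beside 2.91% higher and 4.55% lower over all genes. Of the 22, 16 had a negative difference (median -0.30). The count of falls was 5 without control sample 1 (median -0.49), where 4.17% of all genes fell. It was 5 with barcodes of 1 sample only (median -0.39, 2.90% of all genes). With no filter on low counts it was 8 of 24 (median -0.38, 2.92% of all genes). Lyve1 was at 124, 177 and 102 CPM in HFD and 139, 229 and 223 CPM in control (-0.64 ± 0.23, adjusted p = 0.13, edgeR). Folr2 was at 1150, 1245 and 1149 CPM in HFD and 904, 1168 and 1154 CPM in control (0.02 ± 0.14, adjusted p = 0.96), and F13a1 at 650, 702 and 784 CPM in HFD and 521, 903 and 897 CPM in control (-0.23 ± 0.19, adjusted p = 0.55). All 3 overlapped between diets.

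Fcna (516, 546 and 422 CPM in HFD, 521, 518 and 487 CPM in control) and Mrc1 (474, 401 and 545 CPM in HFD, 422, 709 and 690 CPM in control) overlapped too. Cbr2 fell, at 294, 446 and 257 CPM in HFD and 504, 702 and 581 CPM in control (-0.95 ± 0.20, adjusted p = 0.015, edgeR), lost without HFD sample 1 or 3 or control sample 2 (up to 0.084), with at least 20 rule UMIs (0.057) and with the thinned rule (0.34). Vsig4 rose, at 227, 207 and 105 CPM in HFD and 82.8, 22.1 and 57.4 CPM in control (1.50 ± 0.37, adjusted p = 0.028), lost without HFD sample 1 or 2 or control sample 2 (up to 0.12), with at least 8 (0.068) or 20 rule UMIs (0.19) and with the thinned rule (0.064). A missed threshold does not show that these genes were alike in the 2 diets.

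Among the largest rises were genes outside the resident and alternative activation lists. Cpe, carboxypeptidase E, was at 64.4, 73.8 and 31.6 CPM in HFD and 1.69, 0 and 1.02 CPM in control, or 25, 25 and 9 UMIs in HFD and 4, 0 and 1 UMIs in control (5.23 ± 0.52, adjusted p = 0.00022, edgeR). Cadm1, a cell adhesion molecule, was at 131, 41.3 and 94.9 CPM in HFD and 5.07, 5.10 and 10.2 CPM in control (3.63 ± 0.43, adjusted p = 0.00065). Gdf3, a ligand of the TGF-beta family, was at 131, 76.7 and 109 CPM in HFD and 8.87, 15.3 and 7.17 CPM in control (3.32 ± 0.30, adjusted p = 9.04e-05). In these 3 genes the lowest HFD sample was several times the highest control sample.

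Gdf15, a stress-induced growth factor, was at 343, 440 and 408 CPM in HFD and 101, 110 and 138 CPM in control (1.65 ± 0.17, adjusted p = 0.00024, edgeR). Atp6v0d2, a subunit of the vacuolar proton pump, was at 245, 268 and 123 CPM in HFD and 8.45, 15.3 and 60.5 CPM in control (2.91 ± 0.53, adjusted p = 0.0073). Hpgds, a prostaglandin D2 synthase, was at 119, 162 and 119 CPM in HFD and 35.5, 44.2 and 29.7 CPM in control (1.77 ± 0.23, adjusted p = 0.0011). Each was higher in every HFD sample. With at least 20 rule UMIs Hpgds was at 0.73 (adjusted p = 0.31) and Gdf15 at 1.35 (adjusted p = 0.18), and with the thinned rule at 0.88 (adjusted p = 0.24) and 1.36 (adjusted p = 0.29). Ctsk (3.38), Ahnak2 (3.38), Syngr1 (2.96), Rnf128 (2.74), Pianp (2.62), Mfge8 (2.30) and Cmbl (2.20) complete the 12 largest rises. Of these, Ctsk was lost without HFD sample 1 or control sample 2 (adjusted p up to 0.12), Rnf128 without HFD sample 1, 2 or 3 or control sample 2 (up to 0.15), Cmbl without HFD sample 2 or 3 or control sample 1 or 2 (up to 0.12), and Mfge8 without HFD sample 1 (0.059) and with at least 20 rule UMIs (0.11).

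Growth factor genes were called in both directions. Areg, which encodes amphiregulin, was at 10.3, 5.90 and 49.2 CPM in HFD and 111, 90.1 and 112 CPM in control (-2.50 ± 0.44, adjusted p = 0.0061, edgeR). Hbegf, another ligand of the epidermal growth factor receptor, was at 12.9, 5.90 and 17.6 CPM in HFD and 60.8, 40.8 and 48.2 CPM in control (-2.24 ± 0.38, adjusted p = 0.0047). Both ligands were lower in every HFD sample, whereas Gdf15 of the same list of 12 was higher. Ltb4r1, a leukotriene B4 receptor (-2.81, lost with at least 8 rule UMIs, adjusted p = 0.086), Lyz1, a lysozyme gene with a near-identical copy (-2.22, lost with at least 20, adjusted p = 0.41), and Klrd1 (-2.17, lost without HFD sample 2 or 3 or control sample 1 or 2, adjusted p up to 0.093) complete the 12 largest falls.

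Calls of energy metabolism genes are given beside 2.91% higher and 4.55% lower over all 4945 genes. Of 28 nuclear genes of oxidative phosphorylation none was called (median 0.17), of 14 glycolysis genes 2 rose (Pkm by 0.65 and Aldoa by 0.74), and of 12 mitochondrially encoded genes 1 fell (mt-Nd5, -0.57). Pkm and mt-Nd5 were lost without any sample other than control sample 1 (adjusted p up to 0.13 and 0.23), and Aldoa without HFD sample 1 or 2 or control sample 2 or 3 (up to 0.20). All 3 were also lost with at least 20 rule UMIs (adjusted p of 0.15 to 0.54). Mki67, which encodes the proliferation antigen Ki-67, was at 12.9, 8.85 and 17.6 CPM in HFD and 12.3, 3.40 and 5.12 CPM in control, which overlap. Itgam fell (-0.98, adjusted p = 0.009, edgeR), lost without HFD sample 2 (0.065) and with at least 20 rule UMIs (0.51), and Ptprc fell (-0.66, adjusted p = 0.022), lost without HFD sample 1, 2 or 3 or control sample 2 (up to 0.13) and with at least 8 rule UMIs (0.22).

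Whether the diet difference of the positive cells differed from that of C1q-high macrophages was tested as a class-by-diet term with the sample as a block. Median C1q UMIs of C1q-high cells were 79, 84 and 88.5 in HFD samples and 24, 33 and 40 in control samples. Those of positive cells were 167.5, 222 and 131 in HFD and 83.5, 59 and 59 in control. At least 4 UMIs of Gpnmb plus Mmp12 bar a cell from the C1q-high class but not from the positive cells. The part of this makeup in the differences was not tested. Within C1q-high cells 387 of 6086 genes were higher (6.36%) and 522 lower (8.58%) in HFD, 14.9% in all. The difference passed for 27 of 6722 genes (0.402%), 4 with a larger (0.0595%) and 23 with a smaller (0.342%) log2 difference in positive cells, and the rule genes Cd209f and Cd209g are among the 4. Leaving out HFD sample 3 left 1 call, Sepp1, and leaving out other samples left up to 10 with a larger and 26 with a smaller difference. Most of the diet differences described above were thus not shown to differ between the classes, among them Retnla (-2.88 in positive and -3.63 in C1q-high cells, adjusted p of the difference 0.42) and Ctsd (1.27 in both, 0.97).

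Some transcripts differed more between diets in C1q-high cells than in positive cells. Of 21 perivascular resident genes tested in C1q-high cells, 7 were higher and 2 lower in HFD (median 0.24), and the difference between the classes was called for 5 of 24. Sepp1, which encodes the plasma selenium carrier selenoprotein P, averaged 7219 CPM in HFD and 5543 CPM in control in positive cells (0.27), and 5850 CPM in HFD and 1927 CPM in control in C1q-high cells (1.49, difference -1.22 ± 0.14, adjusted p = 0.00076, edgeR). Folr2 differed by 0.02 in positive and 0.98 in C1q-high cells (difference -0.96, adjusted p = 0.034), lost without HFD sample 1 or 3 or control sample 1 or 2 (up to 0.21). Apoe, which encodes apolipoprotein E, differed by 0.41 in positive and 1.37 in C1q-high cells (difference -0.94, adjusted p = 0.0036), lost without HFD sample 3 (0.055). Hpgd, a prostaglandin-degrading enzyme (-1.88), Angptl4, a lipase inhibitor (-1.48), and Igfbp4 (-1.42) had the most negative differences; Apoe, Angptl4 and Igfbp4 are not on the resident list, and Angptl4 was also lost without HFD sample 1 or control sample 3 (up to 0.094). C1qa was called too (-0.64), but C1q UMIs chose the C1q-high cells, so its value is a description.

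Class II genes fell further in positive cells. Cd74 averaged 12542 CPM in HFD and 25098 CPM in control in positive cells, with log2 differences of -1.12 in positive and -0.33 in C1q-high cells (difference -0.77 ± 0.11, adjusted p = 0.0039, edgeR). H2-Ab1 differed by -1.37 in positive and -0.60 in C1q-high cells (difference -0.74), H2-Aa by -1.17 in positive and -0.36 in C1q-high cells (-0.79), and H2-Eb1 by -1.37 in positive and -0.56 in C1q-high cells (-0.78), each with adjusted p = 0.0039. These 4 were the calls among 11 class II genes, and none was called without HFD sample 3 (adjusted p of 0.055 to 0.069). Egr2, an immediate early factor (difference -1.02), and Dnajb9 (-1.36) also fell further in positive cells, Egr2 lost without HFD sample 2 or 3 or control sample 3 (up to 0.090) and Dnajb9 without any HFD sample or control sample 3 (up to 0.16). Fn1, which encodes fibronectin, fell by 1.60 in positive cells, lost without HFD sample 1 or 2 or control sample 1 or 2 (up to 0.11) and with at least 20 rule UMIs (0.58), and by 2.91 in C1q-high cells (difference 1.34). Plac8, also a monocyte marker, differed by 1.14 in positive and -1.61 in C1q-high cells (difference 2.70). In positive cells Plac8 was not called (adjusted p = 0.21, edgeR). Its levels there overlapped, at 247, 47.2 and 337 CPM in HFD and 75.6, 148 and 48.2 CPM in control.

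**Figure D5:**
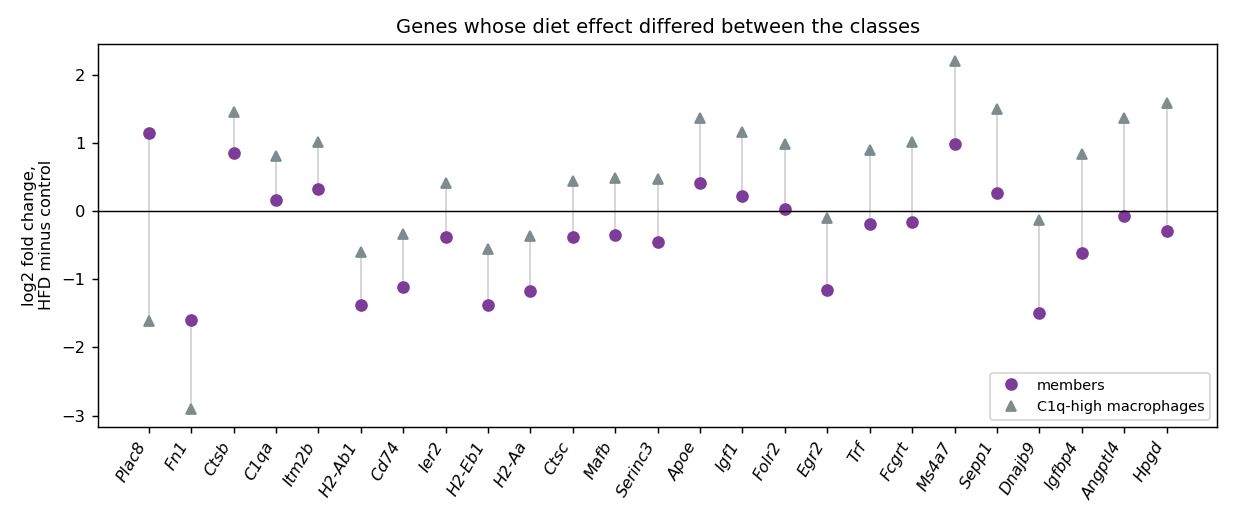
Log2 difference of HFD minus control (y axis) for each of the genes called in the test of the difference (x axis), as circles in members, the Cd209/Cd163-positive cells, and as triangles in C1q-high macrophages; the rule genes are left out. Circles lie above triangles for Plac8 and Fn1 and below them for the other genes.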

How the data were processed

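For 3 HFD and 3 control samples the deposited values are whole-number UMI counts of 33456 genes, not normalized. The submitters' processing notes name Cell Ranger, Seurat 2.4 and mm9 without roles. The calling of barcodes was not stated there. Each barcode was counted only in the sample where it had most UMIs, and cells with at least 200 genes and at most 10% mitochondrially encoded UMIs were kept. No doublet caller was run. The members and the gene lists were chosen with earlier results of these data known. The setting of at least 20 rule UMIs was added after the data were seen.

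UMIs were summed per sample and class and tested as HFD minus control with edgeR 4.0.16 (TMM normalization, filterByExpr, quasi-likelihood test, Benjamini-Hochberg adjustment over all genes tested, threshold 0.05; R 4.3.3). The difference between classes was the class-by-diet term with the sample as a block. The test was tried on simulated counts. CPM are UMIs per 1000000 of the sum, given per sample; a log2 difference is edgeR's and carries its standard error (SE). Ratios of positive over other cells add 5 CPM. Shares carry exact Clopper-Pearson 95% intervals, which cover counting error only. Alternatives were DESeq2 1.42.0 size factors and Wald test, no filter on low counts, other thresholds of the rule, thinned cells, other treatments of shared barcodes, at most 5% mitochondrial UMIs, the replicate number as a block and each sample left out.

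Named genes were the 25 highest and 12 lowest ratios with at least 50 CPM, the 12 largest called rises and 12 largest called falls averaging 20 CPM or more without overlap of the diets, up to 4 genes of each list with the smallest p, and up to 5 called differences in each direction. Predicted genes, antigen receptor segments and genes of ribosomal proteins were not named for their size of change, and not all named genes are printed. Genes outside this rule, such as Trem2, Lgals3, Gpnmb, Tnf, Ctss, H2-DMa, H2-DMb1 and Apoe, were added after their values were seen. Levels of different genes are not compared, since UMI counts are not scaled by length.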

Additional observations from a re-analysis of the deposited data

Results flagged for a closer look

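For 13 named genes the HFD minus control difference in Cd209/Cd163-positive cells differed from that in C1q-high macrophages in edgeR's test of the class-by-diet term. The difference, positive minus C1q-high cells on the log2 scale, was 2.70 for Plac8, a monocyte marker, and 1.34 for Fn1, which encodes fibronectin. It was -1.88 for Hpgd, -1.48 for Angptl4, -1.42 for Igfbp4 and -1.22 for Sepp1, whose log2 differences were -0.30, -0.08, -0.62 and 0.27 in positive cells and 1.58, 1.36, 0.83 and 1.49 in C1q-high cells. Among class II genes it was -0.74 for H2-Ab1, -0.78 for H2-Eb1, -0.77 for Cd74 and -0.79 for H2-Aa. For Dnajb9, a chaperone, it was -1.36, for Egr2 -1.02, and for Ctsb, which encodes cathepsin B, -0.57. Without HFD sample 3, Sepp1 alone passed among all genes tested. Ctsb was also lost without HFD sample 1 or 2 or control sample 2 or 3 (adjusted p up to 0.15).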

How the results depend on the processing

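The mean share of positive cells was higher in control than in HFD under each setting tried. It was 4.20% in HFD with at least 8 rule UMIs, 2.401% in HFD and 16.7% in control with at least 20, 2.18% in HFD and 23.8% in control after thinning, 8.25% in HFD and 20.5% in control with every deposited barcode, 4.25% in HFD with barcodes of 1 sample only, and 8.64% in HFD and 53.2% in control among C1q-positive cells. The 13 genes at least 4-fold higher than in other cells were 26 with the thinned rule and 31 with barcodes of 1 sample only.

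Of genes tested in positive cells, 144 were higher and 225 lower in HFD. They were 83 higher and 130 lower with at least 8 rule UMIs, 17 and 33 with at least 20, 9 and 34 with the thinned rule, and 42 and 64 with barcodes of 1 sample only, which leaves HFD sample 2 out. Without Gpnmb and Mmp12 UMIs, 1 was higher and 4 lower, HFD sample 3 being the lone HFD sample, assumed to vary like the control samples; the median of all genes was then -0.33. With no filter on low counts, 436 were lower and the median was -0.18. Genes higher in HFD were 39.0% of calls in the main test, 20.9% with the thinned rule and 1 of 5 without Gpnmb and Mmp12 UMIs. Leaving out 1 sample gave 66 to 163 higher and 88 to 222 lower. More genes are tested with no filter, and fewer cells or samples enter the other settings; beyond that the cause was not tested. Size factors, the Wald test and at most 5% mitochondrial UMIs stayed within 1.5 times.

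In C1q-high cells the Wald test gave 218 higher and 347 lower, and leaving out 1 sample 232 to 343 and 324 to 498. The difference between classes gave 32 higher and 74 lower with no filter, and 0 to 10 and 1 to 26 with 1 sample left out. Without Gpnmb and Mmp12 UMIs the direction turned for C1qc (-0.29), Rel (0.22), Lipa (-0.10), Aldoa (-0.30), mt-Nd5 (0.22) and Fn1 (0.12), with the thinned rule for Cd209a (0.0015), and with at least 20 rule UMIs for Ptprc (0.033).

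Same-numbered HFD and control samples gave no sign of deviating together in positive cells (correlations -0.178, 0.00625 and -0.147). With 3 samples per diet, these values cannot show whether the replicate numbers pair the samples. The replicate block gave 129 higher and 201 lower in positive cells, and 303 and 423 in C1q-high cells.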

Other observations

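Some genes varied more between samples of 1 diet than between diets in the positive cells. Saa3, an acute-phase protein, was at 64.4, 469 and 875 CPM in HFD samples 1 to 3 and at 4439, 311 and 26.6 CPM in control samples 1 to 3 (adjusted p = 0.39, edgeR). Slpi, a secreted protease inhibitor, was at 33.5, 109 and 1409 CPM in HFD and 4124, 2983 and 25.6 CPM in control (adjusted p = 0.32). Prg4, which encodes lubricin, was at 0, 59.0 and 123 CPM in HFD and 247, 109 and 12.3 CPM in control (adjusted p = 0.45). HFD sample 3 was the highest HFD sample and control sample 3 the lowest control sample for each of the 3 genes.

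Mmp9, a gelatinase, was at 436, 14.8 and 7.03 CPM in positive HFD cells and 84.5, 93.5 and 47.1 CPM in positive control cells (adjusted p = 0.55, edgeR), so that 1 HFD sample held the highest level and the other 2 the lowest. In other cells its level was 5.26, 2.77 and 2.35 CPM in HFD and 39.8, 17.0 and 16.1 CPM in control.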
